A study of Mus musculus with 15 samples.

Results

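Matrix metalloproteinases (MMPs), the ADAM and ADAMTS proteases and their tissue inhibitors (TIMPs) were followed in mouse lungs from a study of ventilator-induced lung injury. The set held 39 genes named by symbol, and a gene was measured where the array had a row, or transcript cluster, annotated with that symbol alone. This gave 37 of the 39 genes, 16 MMPs, 8 ADAMs, 9 ADAMTS proteases and 4 TIMPs, among 19934 genes with such a row and 28361 rows in all, while Mmp15 and Adamts2 had none. The row with the highest mean stood for a gene with several, which applied only to Adamts9. Each value below is the deposited array intensity on a linear scale or its log2, as stated.

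Inferior right lung lobes of 15 male C57BL/6N mice were compared in 3 groups of 5. H2S-ventilated mice received synthetic air with 80 ppm hydrogen sulfide through a rodent ventilator, set to tidal volumes of 12 ml/kg with 2 cm H2O of positive end-expiratory pressure, over 6 h. Air-ventilated mice received synthetic air without H2S at the same settings, and the control mice breathed synthetic air on their own over 6 h. All 3 groups were anaesthetized with ketamine and acepromazine and carried an arterial line and a tracheal tube, and the airways were lavaged before tissue was taken. The labels give a body weight and no age. A spontaneously breathing group given H2S, which the study also had, was not analysed here, so H2S was always compared in ventilated mice. Both comparisons with control used the same 5 control mice.

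MMPs are zinc-dependent proteases, made as inactive proenzymes, that cut collagens, laminins, elastin and cell surface proteins. ADAMs are membrane-bound and mostly release ectodomains of cytokines, growth factors and receptors, whereas ADAMTS proteases are secreted and cut proteoglycans and other matrix proteins. TIMPs bind the active site of these enzymes, and in injured lung the balance of proteases and TIMPs is known to affect the basement membrane, leukocyte entry and repair. The arrays measured RNA only, not proenzyme activation or inhibitor binding.

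The members moved in both directions, and more of them passed the test under H2S ventilation. Against control, 5 members were higher and 5 were lower in H2S-ventilated lungs, whereas 1 was higher and 5 were lower in air-ventilated lungs, at an adjusted p under 0.05 (limma, Benjamini-Hochberg over all 28361 rows). Higher with H2S were the inhibitors Timp1 and Timp3, the sheddases Adam8 and Adam9, and Adamts15. The 5 lower genes were the same in both comparisons, namely Mmp11, Mmp12, Mmp13, Adam17 and Adamts10, and Timp3 was the only member higher in air-ventilated lungs. Of the 37 members, 13.5% were higher in H2S-ventilated lungs, against 3.92% of all rows, and 13.5% were lower, against 3.93% of all rows. In air-ventilated lungs 2.7% of members were higher, against 1.56% of all rows, and 13.5% were lower, against 1.89% of all rows. These shares describe the set only, because the members were chosen with earlier results of these data known. All rows also include 1617 rows with several symbols and 4964 unnamed here, which no member could fill. The median log2 difference of the members was -0.02 with H2S and -0.04 with air ventilation, beside 0.00 and 0.01 over all rows.

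**Figure D1:**
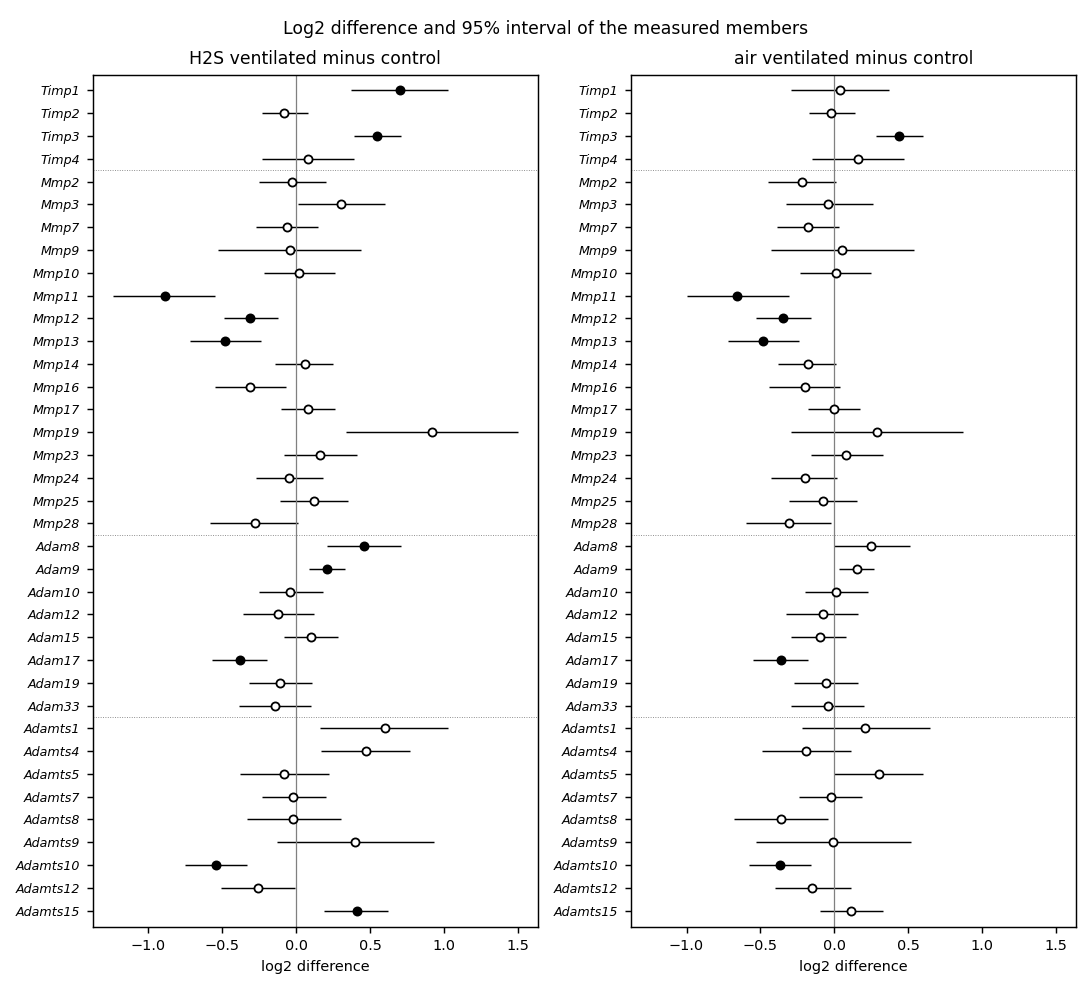
Log2 difference (horizontal axis) of each measured member from control, H2S-ventilated on the left and air-ventilated on the right, with the 95% interval from limma as a horizontal line. Filled points passed an adjusted p under 0.05; dotted lines separate TIMPs, MMPs, ADAMs and ADAMTS proteases. Mmp11 lies furthest to the left in both panels, at -0.89 and -0.66.

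The study's own thresholds (p up to 0.005, adjusted p up to 0.1 and 1.7-fold or more) were met by 2 members in H2S-ventilated lungs, Mmp11 and Mmp19, when 1.45% of all rows met them, and by 0 members in air-ventilated lungs, when 0.959% of all rows did. Values of the groups did not overlap for 11 members between H2S-ventilated and control lungs, or 29.7% of members against 8.2% of all rows. Between air-ventilated and control lungs they did not overlap for 6 members, or 16.2% against 5.55% of all rows.

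Upstream sequences are shown for 5 of the members that passed the test, since MMP promoters are known for AP-1, a stress-responsive transcription factor dimer. RefSeq (GRCm38.p6) gave promoter entries for 23 of the 37 measured members. In the 250 bases before the annotated start, the AP-1 motif TGAGTCA or its reverse complement TGACTCA was searched on both strands. It occurred in 4.46% of the 32851 promoter entries of that table and in 6 of 30 entries of the members. These 30 entries covered 25 members, the unmeasured Mmp15 and Adamts2 among them. The 6 entries with the motif belonged to Mmp3, Mmp7, Mmp10, Mmp12, Mmp13 and 1 of 3 entries of Adam19. Mmp7 and Mmp12 each had another entry without it. The 5 MMP entries with the motif lay close together on chromosome 9, between positions 7272264 and 7692089. They are therefore not entries from separate parts of the genome. Mmp12 and Mmp13, which are neighbours on chromosome 9, were lower in both ventilated groups, while Mmp3, Mmp7 and Mmp10 did not pass the test in either comparison. The entry of Mmp12 with the motif was at chr9:7347124-7347373 on the plus strand, where the motif lay 44 to 38 bases before the start. For Mmp13 the window was chr9:7272264-7272513 on the plus strand, with the motif 35 to 29 bases before the start. No match was found for Mmp11 at chr10:75932503-75932752 on the minus strand, Timp1 at chrX:20869916-20870165 on the plus strand or Timp3 at chr10:86300162-86300411 on the plus strand, which says only that these letters were not in the window. Mmp11 was printed because it met the study's thresholds, and the other 4 were chosen after their values were seen. Capitals mark the motif, and each sequence runs 5′ to 3′ on the gene's strand up to the base before the start.
Mmp13: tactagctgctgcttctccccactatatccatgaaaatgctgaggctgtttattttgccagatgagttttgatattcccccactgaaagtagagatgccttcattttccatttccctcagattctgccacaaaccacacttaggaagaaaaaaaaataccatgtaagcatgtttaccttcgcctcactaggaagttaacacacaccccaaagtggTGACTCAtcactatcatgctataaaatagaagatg
Mmp12: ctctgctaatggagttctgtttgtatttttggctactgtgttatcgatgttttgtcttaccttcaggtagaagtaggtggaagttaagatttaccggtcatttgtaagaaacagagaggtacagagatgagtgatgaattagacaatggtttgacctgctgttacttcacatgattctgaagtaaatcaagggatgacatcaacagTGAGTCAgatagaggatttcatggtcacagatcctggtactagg
Mmp11: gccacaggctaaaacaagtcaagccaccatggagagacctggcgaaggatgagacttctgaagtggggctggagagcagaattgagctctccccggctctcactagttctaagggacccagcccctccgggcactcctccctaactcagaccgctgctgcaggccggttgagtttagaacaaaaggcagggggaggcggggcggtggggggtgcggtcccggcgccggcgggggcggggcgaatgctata
Timp1: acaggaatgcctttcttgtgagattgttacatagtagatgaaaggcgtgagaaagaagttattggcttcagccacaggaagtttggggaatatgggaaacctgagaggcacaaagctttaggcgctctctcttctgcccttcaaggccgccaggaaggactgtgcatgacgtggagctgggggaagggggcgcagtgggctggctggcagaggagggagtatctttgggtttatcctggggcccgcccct
Timp3: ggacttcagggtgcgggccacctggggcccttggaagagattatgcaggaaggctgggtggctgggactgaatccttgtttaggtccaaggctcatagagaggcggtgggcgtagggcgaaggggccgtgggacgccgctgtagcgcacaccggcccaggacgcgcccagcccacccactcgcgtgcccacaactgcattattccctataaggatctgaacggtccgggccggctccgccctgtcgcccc

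Among the inhibitors, Timp3 rose in both ventilated groups, and Timp1 rose in H2S-ventilated lungs. Timp3 is held in the matrix and inhibits ADAM17 and several ADAMTS proteases as well as MMPs. Its intensity was 9429, 9919.5, 10188, 8382 and 9289.7 in H2S-ventilated lungs, 8805, 9261, 8668, 7941 and 8983 in air-ventilated lungs and 6149.7, 6737, 5939, 7177 and 6306 in control lungs, with the mice of a group given here and below in the order of the second number of their labels. All 10 ventilated mice lay above all 5 control mice. The log2 difference from control was 0.55 with H2S (SE 0.08, adjusted p = 0.000548) and 0.44 with air ventilation (SE 0.08, adjusted p = 0.00522), or 1.46-fold and 1.35-fold.

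Timp1, a soluble inhibitor of most secreted MMPs, had intensities of 571, 679.6, 399, 332 and 384 in H2S-ventilated lungs, 314, 279.9, 269.9, 257 and 335 in air-ventilated lungs and 270.2, 277, 290.0, 271 and 298 in control lungs. The 5 H2S-ventilated mice were above every control mouse, and only mouse 15_20, at 332, lay below the highest air-ventilated mouse, at 335. Against control, Timp1 was 1.62-fold higher with H2S (log2 difference 0.70, SE 0.16, adjusted p = 0.0107), and the difference with air ventilation was 0.04 (SE 0.16, adjusted p = 0.972). Levels in the H2S-ventilated group spread widely, with an SD of 0.43 on the log2 scale against 0.16 in air-ventilated and 0.06 in control lungs (n = 5 each).

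Timp2, which takes part in the activation of the Mmp2 proenzyme at the cell surface, did not pass the test. Its intensities were 3140.3, 3175, 2994, 2873 and 2724 in H2S-ventilated lungs, 2983, 3012, 3140.0, 3211 and 3179 in air-ventilated lungs and 3652, 2958, 3105, 3011 and 3021 in control lungs. Control mouse 5_1, at 3652, was above all others, and the remaining values of the 3 groups overlapped. Timp4 had intensities of 299.7, 278, 236, 197 and 167 in H2S-ventilated lungs, 251, 254, 229, 228 and 256 in air-ventilated lungs and 287, 184, 200.4, 214 and 215 in control lungs. The 3 groups overlapped, and the log2 differences of Timp4 from control were 0.08 with H2S (95% interval -0.23 to 0.39) and 0.16 with air ventilation (-0.15 to 0.47).

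**Figure D2:**
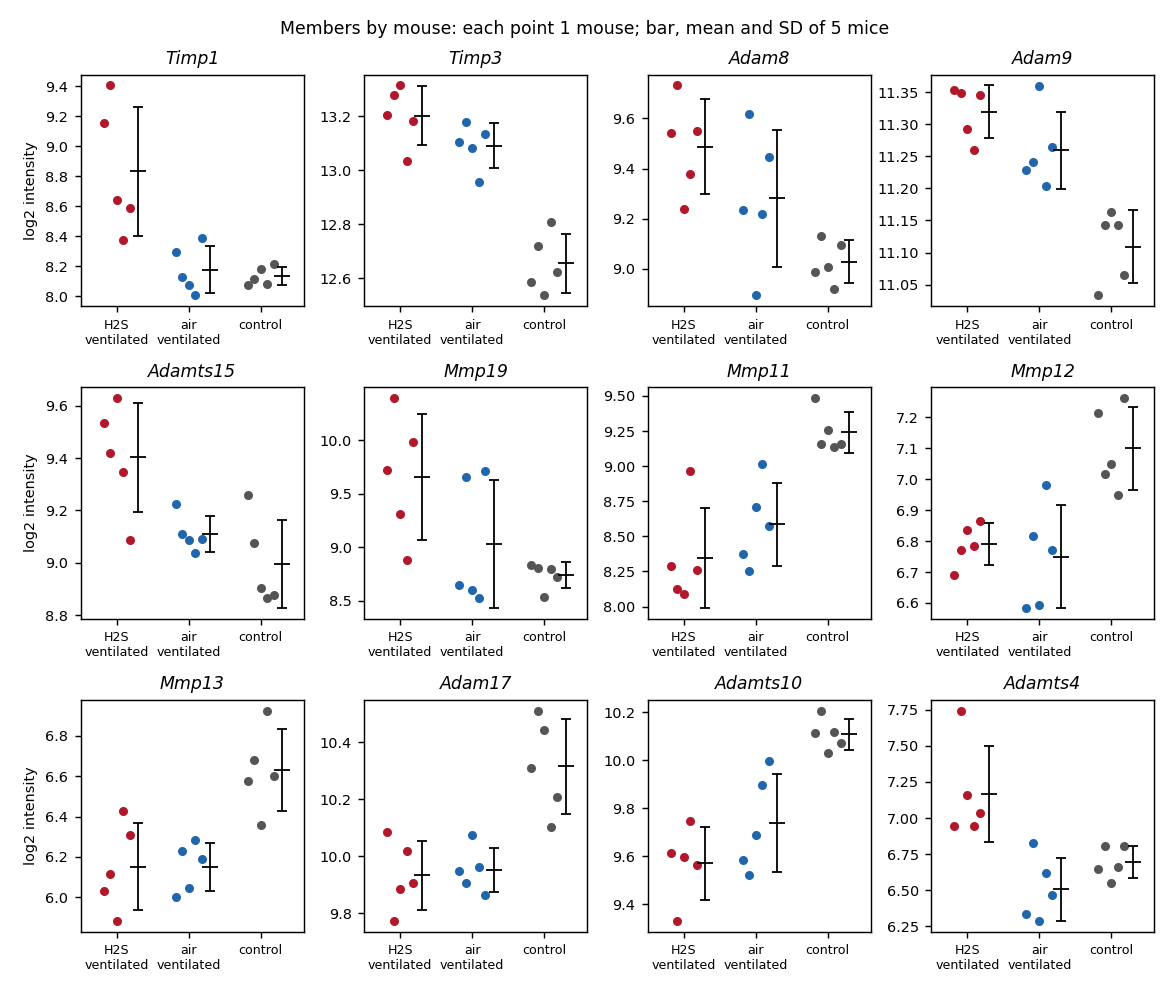
Log2 intensity (vertical axes, which differ between panels and do not start at 0) of 12 members in each mouse, with H2S-ventilated, air-ventilated and control mice from left to right. Points are single mice and bars give the mean and SD of 5 mice; in Timp3 all ventilated mice lie above the control mice, and in Mmp11 all lie below them.

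Of the 16 MMPs, 3 were lower than control in each ventilated group and 0 were higher at an adjusted p under 0.05. Mmp11, or stromelysin-3, is activated inside the cell by furin and is known for cutting serpins rather than collagen. Its intensity was 313, 279, 272, 501 and 306 in H2S-ventilated lungs, 332, 305, 418, 517 and 381 in air-ventilated lungs and 717, 572, 613, 564 and 571 in control lungs. Every ventilated mouse was below every control mouse, and H2S-ventilated mouse 15_20 was well above the other 4 of its group. The log2 difference was -0.89 with H2S (SE 0.16, adjusted p = 0.00315) and -0.66 with air ventilation (SE 0.16, adjusted p = 0.035).

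Mmp13, collagenase-3, which cleaves fibrillar collagens, had intensities of 65.4, 69.2, 58.9, 86 and 79.2 in H2S-ventilated lungs, 64.1, 75, 66.1, 78 and 72.9 in air-ventilated lungs and 95.6, 103, 82.2, 122 and 97.1 in control lungs. Air-ventilated mice did not overlap with control mice, whereas H2S-ventilated mouse 15_20, at 86, exceeded the lowest control mouse, at 82.2. Its log2 difference was -0.48 in both comparisons (SE 0.11 each), with an adjusted p of 0.0162 for H2S and 0.0273 for air ventilation.

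Mmp12, the macrophage elastase, had intensities of 103, 109, 114, 110.2 and 117 in H2S-ventilated lungs, 95.9, 113, 96.7, 126 and 109 in air-ventilated lungs and 149, 129.6, 132, 124 and 154 in control lungs. All H2S-ventilated mice were below the control mice, and air-ventilated mouse 34_22, at 126, was above the lowest control mouse. The log2 difference was -0.31 with H2S (SE 0.09, adjusted p = 0.039) and -0.35 with air ventilation (SE 0.09, adjusted p = 0.0359). Mmp12 and Mmp13 were dim, at the 39.4th and 29.4th percentile of the mean log2 intensity of all rows.

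Mmp19, a secreted MMP that cuts basement membrane proteins, had the largest log2 difference from control of any member in H2S-ventilated lungs and met the study's thresholds, although its adjusted p was above 0.05. Its intensities were 847, 1347, 635, 470.0 and 1014 in H2S-ventilated lungs, 402, 809, 389, 368 and 838 in air-ventilated lungs and 455, 448, 370.3, 443 and 423 in control lungs. H2S-ventilated mice were all above the control mice, mouse 15_20 narrowly so, and the air-ventilated mice fell into 2 at 809 and 838 and 3 at 368 to 402. The log2 difference was 0.92 with H2S (SE 0.27, adjusted p = 0.0511), or 1.89-fold, and 0.29 with air ventilation (SE 0.27, adjusted p = 0.767).

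The gelatinases, which cut type IV collagen and denatured collagen, did not pass the test. Mmp9, abundant in neutrophil granules, had intensities of 1148, 719, 419.8, 1028 and 1092 in H2S-ventilated lungs, 746, 778, 763, 1009 and 1223 in air-ventilated lungs and 819.5, 927, 778, 789 and 975 in control lungs. The groups overlapped widely, and H2S-ventilated mouse 9_12 was the lowest of all 15. Intervals of the log2 difference from control ran from -0.53 to 0.44 with H2S and from -0.43 to 0.54 with air ventilation. Mmp2, made mainly by mesenchymal cells, had intensities of 3127, 3057, 2888, 2851 and 2251 in H2S-ventilated lungs, 2044, 2219, 3004, 2495 and 2674 in air-ventilated lungs and 2749, 2993, 2861, 2994 and 2755 in control lungs. The log2 difference of Mmp2 was -0.03 with H2S (adjusted p = 0.939) and -0.22 with air ventilation (adjusted p = 0.38), and 4 of 5 air-ventilated mice lay below every control mouse.

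The other 10 MMPs did not pass the test in either comparison. These were the stromelysins Mmp3 and Mmp10, the epithelial matrilysin Mmp7, the membrane-bound Mmp14, Mmp16, Mmp17, Mmp24 and Mmp25, the atypical Mmp23 and the epilysin Mmp28. With H2S their log2 differences from control ran from -0.31 for Mmp16 (adjusted p = 0.11) to 0.30 for Mmp3 (adjusted p = 0.225). With air ventilation they ran from -0.31 for Mmp28 (adjusted p = 0.315) to 0.08 for Mmp23 (adjusted p = 0.884). Mmp7, Mmp10, Mmp16, Mmp17, Mmp24 and Mmp25 were dim, from the 23.8th (Mmp7) to the 38.2nd (Mmp17) percentile of all rows, which limits what can be seen in them.

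Of the 8 ADAMs, Adam17 was lower in both ventilated groups, and Adam8 and Adam9 were higher with H2S. Adam17, the TNF-converting enzyme, releases TNF, TNF receptors and EGF receptor ligands from the cell surface. Its intensities were 1086, 874, 946, 1036 and 959 in H2S-ventilated lungs, 988, 959, 1078, 998 and 932 in air-ventilated lungs and 1270.2, 1459, 1392, 1099.8 and 1183 in control lungs. All 10 ventilated mice were below all control mice, and the log2 difference was -0.38 with H2S (SE 0.09, adjusted p = 0.0118) and -0.36 with air ventilation (SE 0.09, adjusted p = 0.0274).

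Adam8 is a leukocyte sheddase that is also found on activated epithelium. It had intensities of 746, 851, 604, 665 and 749 in H2S-ventilated lungs, 602, 786, 476, 595 and 697 in air-ventilated lungs and 507, 560.3, 515, 484 and 547 in control lungs. H2S-ventilated mice were above every control mouse, and air-ventilated mouse 12_10, at 476, was the lowest of all. The log2 difference was 0.46 with H2S (SE 0.12, adjusted p = 0.026) and 0.25 with air ventilation (SE 0.12, adjusted p = 0.358). Adam9, a widely expressed sheddase, had intensities of 2616, 2607, 2507, 2453 and 2601 in H2S-ventilated lungs, 2401, 2421, 2628, 2359 and 2459.7 in air-ventilated lungs and 2096, 2262, 2294, 2260.4 and 2142 in control lungs. Neither ventilated group overlapped with control for Adam9, and the differences were small, at 0.21 with H2S (SE 0.06, adjusted p = 0.0369) and 0.15 with air ventilation (SE 0.06, adjusted p = 0.221).

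Adam10, the constitutive sheddase that acts on Notch receptors and cadherins, and Adam12, Adam15, Adam19 and Adam33 did not pass the test. Their log2 differences from control lay between -0.14 (Adam33) and 0.10 (Adam15) with H2S and between -0.10 (Adam15) and 0.01 (Adam10) with air ventilation.

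Of the 9 ADAMTS proteases, Adamts10 was lower in both ventilated groups and Adamts15 was higher with H2S. Adamts10 binds fibrillin microfibrils, and its intensities were 784, 643, 774, 859 and 757 in H2S-ventilated lungs, 769, 736, 826, 954 and 1022 in air-ventilated lungs and 1108, 1182, 1048, 1113 and 1078 in control lungs. Every ventilated mouse was below every control mouse. The log2 difference was -0.54 with H2S (SE 0.10, adjusted p = 0.00295) and -0.37 with air ventilation (SE 0.10, adjusted p = 0.047).

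Adamts15 cuts versican and aggrecan, the large chondroitin sulfate proteoglycans. It had intensities of 742, 685, 792, 652 and 543 in H2S-ventilated lungs, 598, 553, 544, 526 and 545 in air-ventilated lungs and 612, 539, 478, 466 and 471 in control lungs. Mice 4_8, 9_12, 1_4 and 15_20 of the H2S-ventilated group exceeded all control mice, and mouse 27_28, at 543, did not. The log2 difference was 0.41 with H2S (SE 0.10, adjusted p = 0.0201) and 0.11 with air ventilation (SE 0.10, adjusted p = 0.743). Its neighbour Adamts8, with the same kind of substrate, had a difference of -0.02 with H2S (adjusted p = 0.976) and -0.36 with air ventilation (adjusted p = 0.269).

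Values of 3 further proteoglycan-cutting members are given by mouse although they did not pass the test, a choice made after their values were seen. Adamts1 had intensities of 2127, 2037, 1712, 1105 and 1951 in H2S-ventilated lungs, 1055, 2142, 1194, 998 and 1566 in air-ventilated lungs and 1103, 1068, 1338, 996 and 1288 in control lungs. Adamts9, whose protein is secreted and also retained at the cell surface, had intensities of 1624, 1894, 1516, 981 and 1000.5 in H2S-ventilated lungs, 795, 2119, 907, 966 and 761 in air-ventilated lungs and 1070.0, 1091, 997, 1195 and 828 in control lungs. In both genes air-ventilated mouse 11_6 was the highest of all 15 mice, and H2S-ventilated mouse 15_20 lay within the control range. Mouse 11_6 was also 1 of the 2 air-ventilated mice with high Mmp19. Differences from control with H2S were 0.60 for Adamts1 (SE 0.20, adjusted p = 0.0909) and 0.40 for Adamts9 (SE 0.25, adjusted p = 0.422).

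Adamts9 was measured by 6 rows, and none of them passed the test in any comparison. With H2S the log2 difference from control ran from 0.17 to 0.62 over the 6 rows, and with air ventilation from -0.38 to -0.01. Adamts4, an aggrecanase, had intensities of 123, 214, 143, 123 and 131 in H2S-ventilated lungs, 80.7, 114, 78.2, 98.2 and 88.3 in air-ventilated lungs and between 93.8 and 112 in control lungs. All 5 H2S-ventilated mice were above both other groups, mouse 4_8 by far, and the difference from control was 0.47 (SE 0.14, adjusted p = 0.0525). For Adamts5, Adamts7 and Adamts12 the differences from control lay between -0.26 (Adamts12, adjusted p = 0.224) and -0.02 (Adamts7, adjusted p = 0.965) with H2S, and between -0.15 (Adamts12) and 0.30 (Adamts5, adjusted p = 0.359) with air ventilation.

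**Figure D3:**
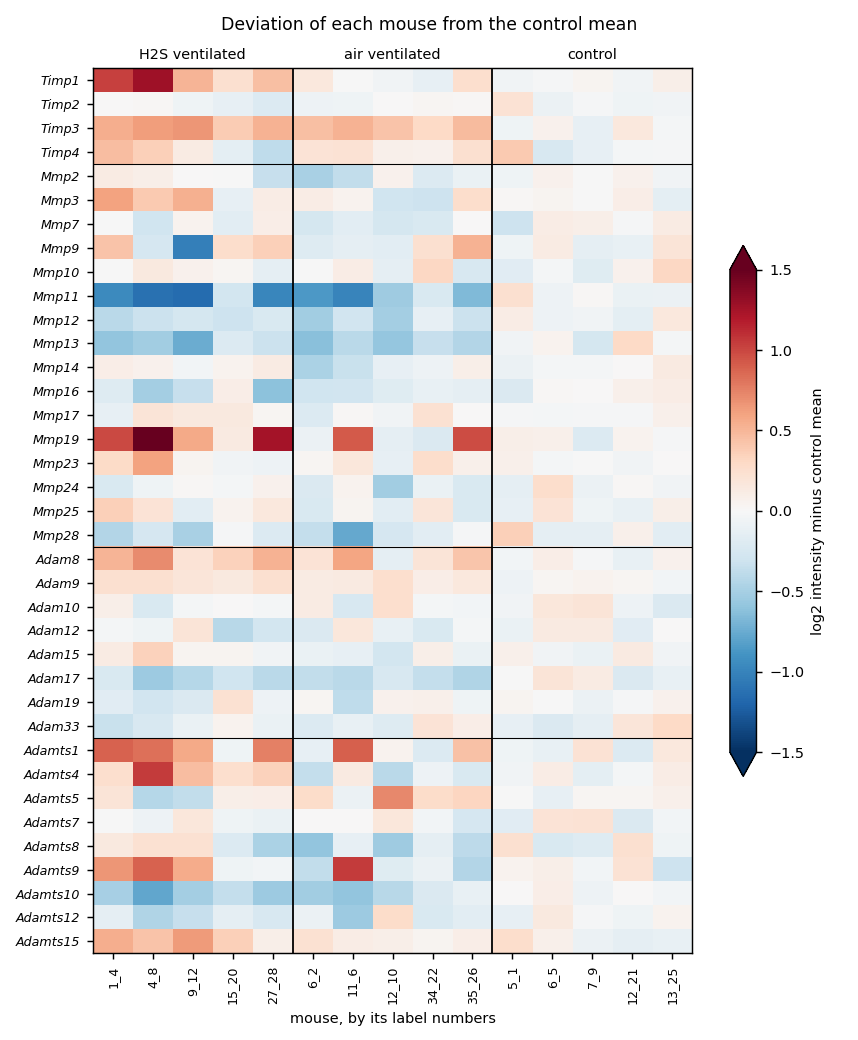
Log2 intensity of each measured member minus its mean in the 5 control mice, with members as rows (TIMPs, MMPs, ADAMs and ADAMTS proteases from top to bottom) and mice as columns (H2S-ventilated, air-ventilated and control from left to right). Red is above and blue below the control mean, and colours stop at 1.5. The row of Timp3 is red in all 10 ventilated mice, and the rows of Mmp11, Mmp13, Adam17 and Adamts10 are blue in them. Adam9 and Adamts15 also lie above the control mean in all 10, and Mmp12 and Mmp28 below it, in some mice only slightly.

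A direct comparison of H2S-ventilated with air-ventilated lungs, which shares no control mice, gave 0 members at an adjusted p under 0.05 in limma, when 0.0705% of all rows were higher and 0.00705% were lower at that threshold. At an unadjusted p under 0.05 there were 9 members, or 24.3%, against 5.68% of all rows. Of these 9, 8 were higher with H2S (Timp1, Mmp3, Mmp14, Mmp19, Adam15, Adamts4, Adamts8 and Adamts15) and Adamts5 was lower. No member met the study's thresholds, which 0.0599% of all rows did, and Adamts4 was the 1 member whose groups did not overlap, or 2.7% of members against 1.2% of all rows. With the CyberT test named in the study's methods, 2 members passed an adjusted p under 0.05, Timp1 (adjusted p = 0.0104) and Adamts4 (adjusted p = 0.0152), when 0.504% of all rows did.

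**Figure D4:**
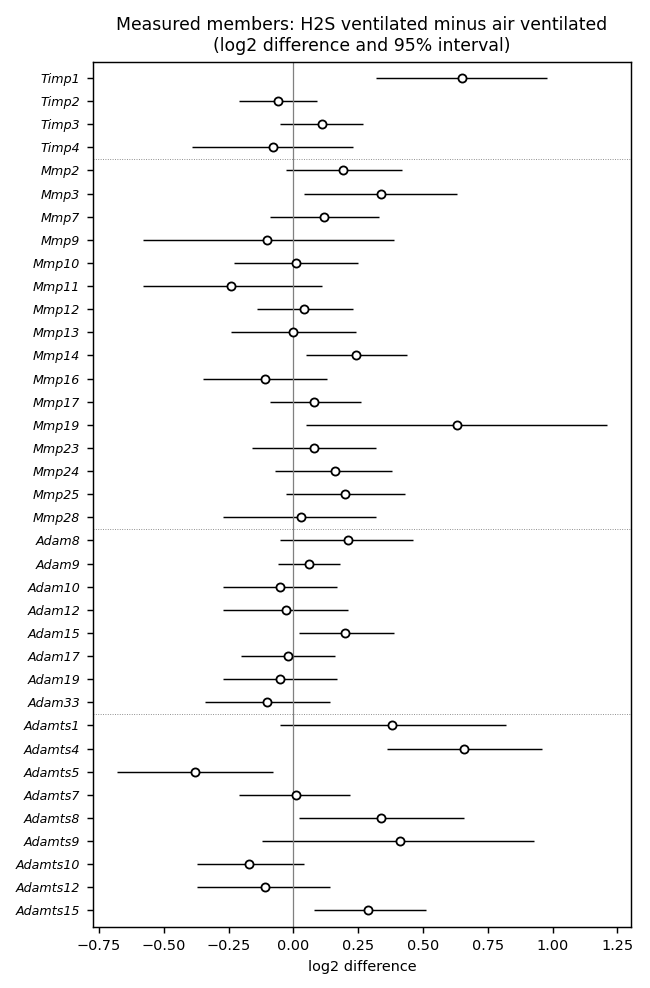
Log2 difference between H2S-ventilated and air-ventilated lungs (horizontal axis) for each measured member, with its 95% interval as a line; open points did not pass an adjusted p under 0.05, and no point is filled. The points of Adamts4, Timp1 and Mmp19 lie furthest to the right, at 0.66, 0.65 and 0.63.

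In limma the largest differences between the ventilated groups were 0.66 for Adamts4 (SE 0.14, 95% interval 0.36 to 0.96, adjusted p = 0.166), 0.65 for Timp1 (SE 0.16, 0.32 to 0.98, adjusted p = 0.212) and 0.63 for Mmp19 (SE 0.27, 0.05 to 1.21, adjusted p = 0.811). The members lower in both ventilated groups had intervals that included 0, from -0.58 to 0.11 for Mmp11, -0.14 to 0.23 for Mmp12, -0.24 to 0.24 for Mmp13, -0.20 to 0.16 for Adam17 and -0.37 to 0.04 for Adamts10. For Timp3 the interval was -0.05 to 0.27. Adam8, Adam9 and Adamts15 passed against control with H2S and not with air ventilation, and their differences between the ventilated groups were 0.21 (adjusted p = 0.964), 0.06 (adjusted p = 0.997) and 0.29 (adjusted p = 0.586).

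The labels number the mice in 2 runs, 1 to 12 with 3 mice per group and 20 to 28 with 2, and do not say what the numbers mean. In both runs the sign of each difference that passed the test was kept. Timp1 differed from control with H2S by 0.94 in the first run and 0.33 in the second, Mmp11 by -1.13 and -0.53, Adam17 by -0.51 and -0.19, Mmp13 by -0.53 and -0.40, and Timp3 by 0.65 and 0.39. With air ventilation, Timp3 differed by 0.51 and 0.33 and Mmp11 by -0.86 and -0.35. Not every difference was larger in the first run: Mmp13 differed by -0.45 and -0.53 with air ventilation, and Adam8 by 0.46 in both runs with H2S. Whether the runs differed was not tested, and with 2 mice per group 0 members passed in the second run alone.

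Calls of single members depended on single mice to different degrees. With each of the 15 mice left out in turn, Timp1, Timp3, Mmp11, Mmp13, Adam17 and Adamts10 passed every time with H2S, with a highest adjusted p of 0.0457 (Mmp13). In each comparison 5 of these fits left out a mouse of the group not compared. Those fits leave the difference as it was and change the estimate of its spread. The other H2S calls passed in 10 (Adamts15), 9 (Adam8), 5 (Adam9) and 5 (Mmp12) of 15 such fits, with a highest adjusted p of 0.0563, 0.0662, 0.09 and 0.105. Of the fits without an H2S-ventilated or control mouse, Adam9 passed only without mouse 15_20 and Mmp12 only without mouse 12_21. For air ventilation Timp3 alone passed every time (highest adjusted p = 0.0202), and the others passed in 9 (Mmp13 and Adam17), 7 (Mmp11 and Mmp12) and 4 (Adamts10) of 15, with a highest adjusted p of 0.133 (Adamts10). Of the fits without an air-ventilated or control mouse, Mmp11 and Mmp12 passed only without mouse 34_22 or 12_21. In those fits Adamts10 passed only without mouse 34_22 or 35_26. The count of 6 members in air-ventilated lungs fell to 2 without air-ventilated mouse 11_6, 12_10 or 35_26 or control mouse 5_1, 7_9 or 13_25, and to 1 without air-ventilated mouse 6_2 or control mouse 6_5. The count of 10 with H2S fell to 6 without H2S-ventilated mouse 1_4 or control mouse 7_9.

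Bulk lung RNA holds many cell types, and for every gene a change in the number of cells and in RNA per cell cannot be told apart. The labelled tissue was checked against markers of 12 cell types, none of which had a measured marker among the lowest 25% of all rows. Marker counts are to be read beside the shares of all rows, 3.92% higher and 3.93% lower with H2S. With air ventilation those shares were 1.56% and 1.89%. Alveolar type II markers, surfactant genes among them, summed to 60449 to 62641 in H2S-ventilated, 60109 to 63172 in air-ventilated and 59238 to 61916 in control lungs. Of 8 such markers 1 rose and 1 fell with H2S, and 1 fell of 6 alveolar type I markers, of 6 club and ciliated cell markers and of 5 mesothelial markers. With air ventilation only the mesothelial marker Lrrn4 fell among these 4 lists. Of 12 neutrophil markers, 3 rose with H2S and 2 with air ventilation, with summed intensities of 9057 to 16582 in H2S-ventilated, 9717 to 13924 in air-ventilated and 5953 to 10999 in control lungs. Of 9 alveolar macrophage markers, 4 rose with H2S and 1 with air ventilation, and 0 fell, with sums of 14705 to 16797, 13938 to 14794 and 12959 to 15161 in the same order of groups. Car4, the brightest of the 9, weighed most in these sums and did not pass the test. Its median intensities were 5657, 5412 and 5429.6 in that order of groups. Monocyte and interstitial macrophage markers summed to 3005 to 4586, 3124 to 4054 and 3439 to 4493, and 1 of 7, Cx3cr1, fell in both comparisons. Between H2S-ventilated and air-ventilated lungs 1 marker of the 12 lists passed, the alveolar macrophage marker Pparg, a transcription factor, which was higher with H2S by 0.39 (adjusted p = 0.0317). The part of these cells in the lower Mmp12, the higher Adam8 and the differences of Timp1, Adamts4 and Mmp19 between the ventilated groups was not tested.

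Endothelial markers fell in 3 of 8 genes with H2S and 2 with air ventilation, and their sums of 24729 to 27085 in H2S-ventilated and 23961 to 26694 in air-ventilated lungs did not overlap with 28081 to 31998 in control lungs. Fibroblast markers summed to 19459 to 22571, 18250.3 to 20818 and 20381 to 23936 in H2S-ventilated, air-ventilated and control lungs. In each comparison 1 of 10 was lower, but not the same gene: Slit2 with H2S and Npnt with air ventilation. Pericyte and smooth muscle markers summed to 9745 to 11156, 9803 to 12534 and 10496 to 14906, with 2 of 8 lower with H2S and 0 with air ventilation. All 4 measured B cell markers fell in both comparisons, with sums of 859.8 to 1855, 928 to 2466 and 2616 to 4525. Sums of the 7 T and NK cell markers were 1877 to 3068, 1559 to 4129 and 2316 to 3902, and 0 of 7 passed. The part of these cells in the lower Mmp11, Mmp13, Adam17 and Adamts10 was not tested.

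Genes that act on the members or are cut by them were described from 5 lists. Over all rows, 3.92% were higher and 3.93% lower with H2S, and 1.56% and 1.89% with air ventilation. The counts below were not tested against these shares, and a count of 1 in a list can lie close to them. Of 27 other family genes, 1 rose (Adamtsl2, 0.28, adjusted p = 0.0385) and 3 fell (Adam22, Adam28 and Adamtsl3) with H2S, and with air ventilation only Adamtsl3 fell. Adamtsl3, a relative of the ADAMTS proteases without a protease domain, differed from control by -0.44 with H2S (adjusted p = 0.0273) and -0.52 with air ventilation (adjusted p = 0.0172). Adam28, found on lymphocytes, differed by -0.38 with H2S (adjusted p = 0.00729) and -0.11 with air ventilation (adjusted p = 0.646). The list's median difference was -0.06 with H2S and -0.02 with air ventilation.

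Of 17 measured genes of protease activation and inhibition outside the family, 3 rose and 0 fell with H2S, and 0 passed with air ventilation. Plat, the tissue plasminogen activator, differed from control by 1.09 with H2S (SE 0.16, adjusted p = 0.000984) and 0.61 with air ventilation (SE 0.16, adjusted p = 0.0516). Plaur, the urokinase receptor, differed by 0.78 with H2S (SE 0.12, adjusted p = 0.00119) and 0.34 with air ventilation (SE 0.12, adjusted p = 0.175). Furin, the convertase that activates Mmp11 and the membrane-bound MMPs, differed by 0.31 with H2S (SE 0.07, adjusted p = 0.0165) and 0.27 with air ventilation (SE 0.07, adjusted p = 0.0571).

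Of 22 measured regulators and substrates of Adam10 and Adam17, 4 rose with H2S and 2 fell, and 1 rose with air ventilation. Il6ra, the interleukin 6 receptor that Adam17 can shed, rose in both, by 0.45 with H2S (adjusted p = 0.00527) and 0.50 with air ventilation (adjusted p = 0.00573). The EGF receptor ligands Btc and Tgfa and the chemokine Cxcl16 rose with H2S by 0.41, 0.32 and 0.29 (adjusted p = 0.012, 0.0475 and 0.0355), and the chemokine Cx3cl1 and the Adam10 partner Tspan15 fell by 0.56 and 0.49 (adjusted p = 0.0216 and 0.0176). With air ventilation these 5 genes did not pass the test: the log2 difference was 0.03 for Btc (adjusted p = 0.963), 0.34 for Tgfa (0.0655), -0.02 for Cxcl16 (0.975), -0.39 for Cx3cl1 (0.177) and -0.37 for Tspan15 (0.113). None of the 22 passed between the ventilated groups.

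Of 21 measured ADAMTS substrates and partners, 1 rose with H2S and 0 passed with air ventilation. This was Has1, which makes hyaluronan, the partner of versican, with a difference of 0.95 with H2S (SE 0.19, adjusted p = 0.00615) and 0.09 with air ventilation (SE 0.19, adjusted p = 0.944). Among 13 basement membrane and collagen genes cut by MMPs, the median difference was -0.22 in both comparisons. Tnc, the matrix glycoprotein tenascin C, fell in both, by 0.63 with H2S (adjusted p = 0.0308) and 0.74 with air ventilation (adjusted p = 0.0218). Lama4, a laminin chain of vessel basement membrane, fell by 0.43 with H2S (adjusted p = 0.0222). Its difference with air ventilation was -0.28 and did not pass (adjusted p = 0.218). Sums of the 13 genes were 11918 to 15352 in H2S-ventilated, 10941 to 15461 in air-ventilated and 14551 to 15276 in control lungs. In none of the 5 lists did a gene pass between H2S-ventilated and air-ventilated lungs.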

How the data were processed

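Lung RNA of 15 mice was hybridised to Affymetrix whole-transcript arrays. The authors corrected background by GC content through anti-genomic probes, quantile normalized the arrays and summarised probe sets by RMA, the step given in the submitters' processing notes. These deposited values were linear intensities and were transformed to log2 here, although the design had taken them as log2. Of 28361 rows, 21780 had 1 symbol, 1617 had several and 4964 were unnamed here, in an older platform annotation. A linear model over the 3 groups, without covariates, was fitted to all rows (lmFit, contrasts.fit and eBayes of limma 3.58.1, R 4.3.3). A member was called at a Benjamini-Hochberg adjusted p under 0.05. Intervals are 95% intervals from that fit. The CyberT test of the study's methods was run as an alternative.

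The members and lists were chosen with earlier results of these data known. Every member was named. Values by mouse were given for called members, TIMPs and gelatinases, list genes were named where called, and exceptions are stated in the text. Simulated data had 28361 rows with independent noise in each. In them the fit recovered 95% of 100 rows changed 2-fold and 99% of 100 changed 3-fold between H2S-ventilated and control mice. Among the 209 calls of the fit, 15 were unchanged rows. These folds are above those of any member here, so recovery at the folds of the members was not measured. Arrays had median intensities of 179 to 187 and correlated at 0.984 to 0.994 within groups, and 5 arrays per group limit the precision. Nothing in the labels says whether dissection, extraction or scanning was done in batches. A gene that the study names is not reported here.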

Additional observations from a re-analysis of the deposited data

Results flagged for a closer look

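In 111 groups of 5 mice (37 members in 3 groups), 6 held a mouse that stood apart from the other 4 by Dixon's criterion, when chance would give about 1 in 20. Mmp11 was 501 in H2S-ventilated mouse 15_20, against a median of 293 in the other 4 mice of that group. Adamts4 was 214 in H2S-ventilated mouse 4_8, against 127. Mmp2 was 2251 in H2S-ventilated mouse 27_28, against 2973. Adamts9 was 2119 in air-ventilated mouse 11_6, against 851. Timp2 was 3652 in control mouse 5_1, against 3016, and Mmp17 was 117 in control mouse 13_25, against 109.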

How the results depend on the processing

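Of 27 alternatives per result, 15 left out 1 mouse and 12 changed the processing. The cause of the changes below was not tested, and some settings also had fewer mice. For the count of members called, main values were 10 for H2S-ventilated and 6 for air-ventilated against control, and 0 between the ventilated groups. With mice of label numbers 1 to 12 alone the counts were 6 and 3, and with numbers 20 to 28 alone 0 and 0. Fitting only the groups compared gave 3 for air ventilation. With each mouse left out in turn the counts ran from 6 to 13 with H2S, from 1 to 6 with air ventilation and from 0 to 0 between the ventilated groups. That last count was 2 with CyberT and 1 with array weights, where Adamts4 passed (adjusted p = 0.0436). Against control, CyberT gave 11 members with H2S and 6 with air ventilation. Of all 28361 rows it called 2616 with H2S and 1617 with air ventilation, where limma called 2228 and 977. CyberT lost Mmp12 in both and Adam9 with H2S, and gained Mmp19, Adamts1 and Adamts4 with H2S and Adamts8, lower, with air ventilation. Number runs as a block left all 3 counts as they were. Over 20 log2 differences of named members, 422 of 540 refits kept their side of the threshold, 103 lost a call, 15 gained a call and 0 changed sign. Of those that gained one, 11 were Mmp19 with H2S, whose adjusted p ran from 8.68e-05 with CyberT to 0.606. The labels do not say that a number pairs mice, and 2 fits with a random replicate block were chosen after seeing the data. With sets of 4 successive second label numbers as the block, 10 of 13 pairs of mice of 1 set in different groups deviated together (correlation over 0.1, range -0.18 to 0.36), and the counts were 12 with H2S, 6 with air ventilation and 1 between the ventilated groups (Adamts4, adjusted p = 0.0468). With the shared first label number as the block, the 2 such pairs correlated at -0.18 and 0.037 and the counts were 10, 6 and 0. Dim probes and 5 mice per group limit what can be seen. Mmp12, Mmp13 and Adamts4 lay below the 40th percentile of all rows. So did Mmp7, Mmp10, Mmp16, Mmp17, Mmp24, Mmp25 and Adam12, which did not pass the test.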
